A study of Homo sapiens with 6 samples.

Results

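The 49 genes described here encode proteins of homologous recombination, the Fanconi anemia pathway, mismatch repair, DNA end joining and the signalling that goes with them. They were taken by name, out of 27754 genes in the count files, from a list chosen with earlier results of these data known. All 49 passed the filter on low counts that left 15657 genes for testing. MRE11A was found under its current symbol, MRE11, and the other 48 under the listed symbols. T47D is a luminal human breast cancer cell line, grown here in adherent culture. RNA was sequenced from 3 libraries of cells kept in normoxia (20% O2) and from 3 libraries of cells kept in a hypoxia chamber, which the labels set at 0.5% O2 for 48 h. The study's text gives another O2 level for hypoxia. By the labels the groups differ in O2 alone, with no genetic change in either. All libraries come from 1 cell line. The study describes its replicates as independent experiments, while the labels do not say what a replicate is.

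Homologous recombination copies an intact sister chromatid to mend a broken one, so it is used mainly in cells that have replicated their DNA. Broken ends are first trimmed to single strands, BRCA2 then loads a recombinase on them with the help of PALB2 and BRCA1, and the recombinase finds the matching sequence. The Fanconi pathway detects crosslinks between the strands at stalled replication forks and hands the resulting breaks to recombination. Mismatch repair removes the base errors that polymerases leave behind. Non-homologous end joining ligates ends directly and does not need a sister chromatid. The comparison asked how the transcripts of each of these routes differed between hypoxia and normoxia.

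Libraries held 32989104 to 40943424 counts in normoxia and 34640756 to 89883409 in hypoxia. By these totals, 3 counts corresponded to 0.0334 to 0.0909 per 1e6 counts. CPM below stands for counts scaled to 1e6 per library, with TMM factors. Principal component analysis separated the conditions on the first component (82.8% of the variance), and replicate 3 of both conditions stood apart on the second (10.4%). All 10 genes of a list of known hypoxia targets rose (median log2 fold change 2.64), led by EGLN3 at 5.51 and CA9 at 5.29. The luminal genes KRT8, KRT18, KRT19 and EPCAM were all abundant, with no library under 6549 counts. ESR1 (log2 fold change -1.86) and PGR (-2.93), the hormone receptor genes of luminal cells, fell. In the full list of 8 luminal genes, which also held GATA3 and FOXA1, 4 fell and 0 rose (median -0.53). Over all tested genes 29.1% fell. Defining genes of other cell types were at or near 0: KRT5, KRT14, COL1A2, COL3A1, DCN, PTPRC, CD3E, PECAM1, CDH5, VWF and KDR had at most 42 counts in any library.

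Many of these genes are known targets of the E2F factors, which drive transcription as cells enter S phase. Promoter sequences from RefSeq (GRCh38.p14, 250 bases before to 50 after the start site) were at hand for 43 of the 49 genes, and were searched on both strands for the 4 words TTTCCCGC, TTTCGCGC, TTTGCCGC and TTTGGCGC. A word was found in 10 of the 43 (23.3%), compared with 5.07% of the 11350 promoters of tested genes and 61.9% of the 21 promoters of a list of replication initiation genes. The windows below are given because they hold the words in genes of 4 of the groups that follow, in the direction of the gene, with the word or its reverse complement in capitals. A match is a description of the sequence and not evidence of binding.
MSH6: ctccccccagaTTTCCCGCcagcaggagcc
PMS2: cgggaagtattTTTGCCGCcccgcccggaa
EXO1: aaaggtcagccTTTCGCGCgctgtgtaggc
FANCD2: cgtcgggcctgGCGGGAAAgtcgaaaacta
FANCA: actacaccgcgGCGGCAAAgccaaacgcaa
XRCC2: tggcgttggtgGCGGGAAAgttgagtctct

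Each window matched GRCh37, the build of the count files, once. The MSH6 window lies at chr2:48010276-48010305, that of EXO1 at chr1:242011499-242011528, that of FANCD2 at chr3:10068108-10068137 and that of XRCC2 at chr7:152373187-152373216, all inside exons of those genes as the files define them. Windows of PMS2 (chr7:6048762-6048791, minus strand) and FANCA (chr16:89883209-89883238, minus strand) lie 25 and 143 bases upstream of the gene in the files. MSH6, EXO1 and FANCD2 are on the plus strand and XRCC2 on the minus strand. Of the 29 genes that fell and have a promoter entry 6 held a word, as did 4 of the other 14. Among those printed, MSH6, EXO1, FANCD2, FANCA and XRCC2 fell, and PMS2 did not pass the test. Of the genes with a word that are not printed, XRCC6 fell, and MSH3, FANCC and DMC1 did not pass. The core of the hypoxia response element (ACGTG or GCGTG) was in 33 of the 43 promoters (76.7%), against 62.1% of those of tested genes.

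In hypoxia 34 of the 49 genes fell and 3 rose, by edgeR's quasi-likelihood test with Benjamini-Hochberg adjustment over all tested genes at 0.05, and 12 did not pass. Over all tested genes, 29.1% fell and 30.4% rose. The median log2 fold change of the 49 genes was -0.49, while that of all tested genes was 0.03. Falls were mostly moderate: 1 of the 49 genes, FANCE, fell by at least 1 on the log2 scale, compared with 768 of all 15657 tested genes. In 35 genes every hypoxia library lay below every normoxia library, a pattern found in 32.4% of all tested genes. The 3 genes that rose were RAD52, MLH3 and ATM. In these bulk libraries fewer cells that express a gene and less of its RNA per cell cannot be told apart.

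**Figure D1:**
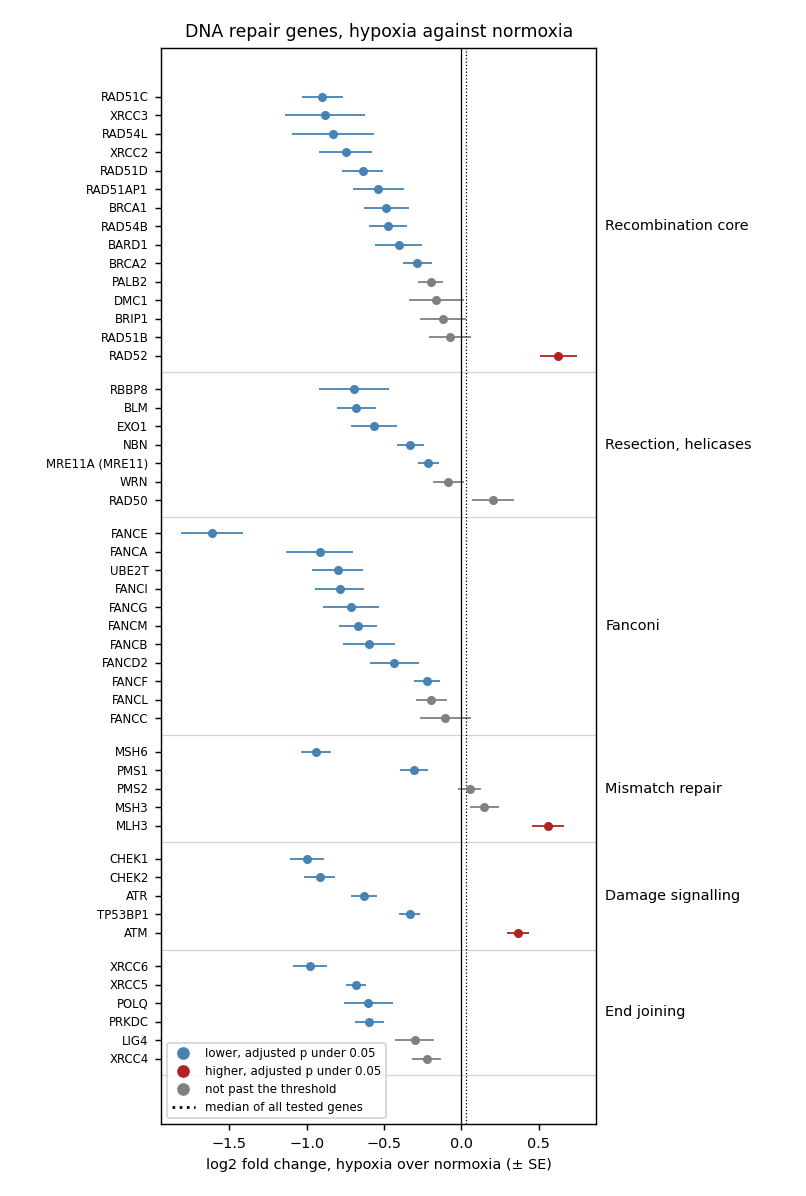
Log2 fold change of hypoxia over normoxia (x axis, ± SE) for each of the 49 genes (y axis), grouped by function, with 3 libraries in each condition. Most points lie left of 0, FANCE is lowest at -1.61, and RAD52, MLH3 and ATM are the 3 genes that rose.

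Genes of DNA replication and cell division moved with this result. Of 24 replication initiation genes 22 fell (median log2 fold change -0.98), and their summed level was 2635 to 3438 CPM in normoxia and 1249.9 to 1878 CPM in hypoxia. Of 18 mitosis genes 16 fell (median -0.80), with a summed level of 5122 to 5397 CPM in normoxia and 2705 to 3923 CPM in hypoxia. MCM5 and MCM6, subunits of the replicative helicase, fell by 1.67 and 1.57 on the log2 scale, and the mitotic kinase gene AURKA and the cyclin gene CCNB1 fell by 1.35 and 1.33. Their part in the changes of the repair genes was not tested. Medians of the 6 repair groups were closer to 0 and ran from -0.67 for the Fanconi genes to 0.05 for the mismatch repair genes.

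The size of the change differed between replicate numbers. Compared library by library within a number, the median log2 difference over the 49 genes was -0.63 for replicate 1, -0.55 for replicate 2 and -0.34 for replicate 3, with 43, 42 and 39 genes lower in hypoxia. Over all 15657 tested genes the medians were 0.025, 0.007 and 0.035, with 7599, 7763 and 7466 genes lower. Of the 34 genes that fell, 33 were lower in all 3 of these pairs, whose libraries also gave those calls. Replication initiation genes had the same order of pairs as the 49 genes, with medians of -1.10, -1.08 and -0.73. Mitosis genes had another order, with medians of -0.94, -1.03 and -0.48 and replicate 2 the lowest. Without hypoxia replicate 3 the median of the 49 genes was -0.65 and 5 of them rose, against 31.5% of all tested genes.

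**Figure D2:**
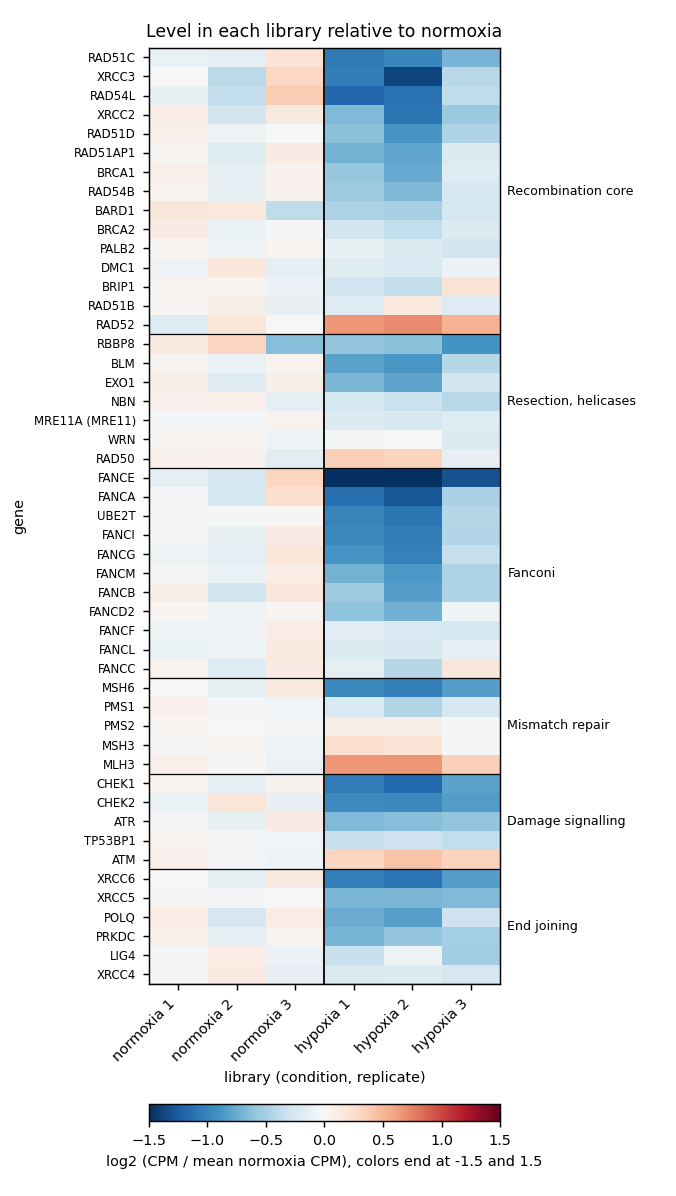
Level of each of the 49 genes (rows) in each of the 6 libraries (columns), as log2 of its CPM over its mean CPM in normoxia, with the genes grouped by function. Blue covers most of the 3 hypoxia columns and is paler in hypoxia replicate 3, and the RAD52, MLH3 and ATM rows are red in all 3.

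Per length, the levels of the 49 genes in normoxia covered a wide range. In FPKM, which is CPM per kilobase of exon, the highest were XRCC6 (238 ± 23.7, SD, n = 3), XRCC5 (168 ± 2.87) and UBE2T (109 ± 2.25), and the lowest DMC1 (1.04 ± 0.118) and RAD51B (1.17 ± 0.0805). The level was above the median of all tested genes in 33 of the 49. The same 3 genes led in hypoxia, at 120 FPKM for XRCC6, 105 for XRCC5 and 62.3 for UBE2T.

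**Figure D3:**
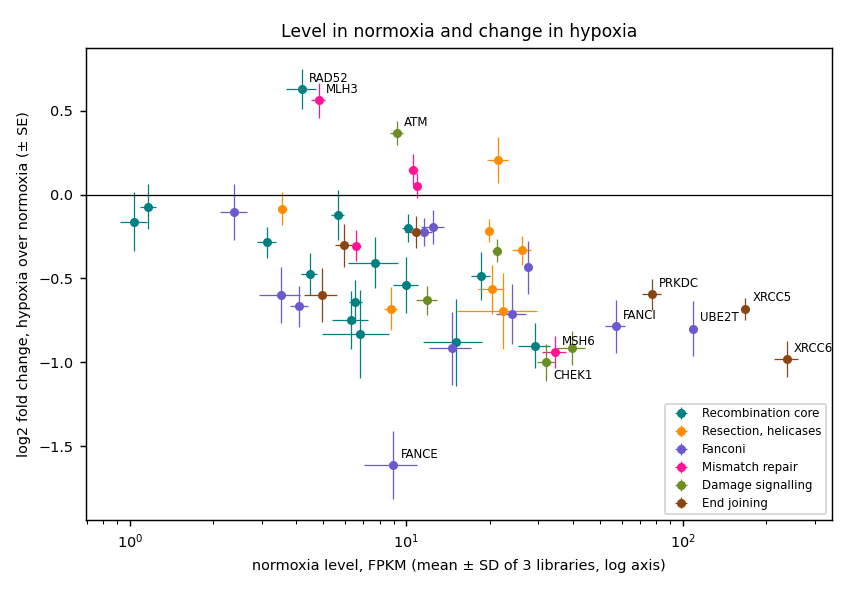
Mean normoxia level in FPKM (x axis, log scale, ± SD of 3 libraries) against log2 fold change in hypoxia (y axis, ± SE) for the 49 genes, colored by function. The abundant genes XRCC6, XRCC5, UBE2T, PRKDC and FANCI all lie below 0, and the 3 genes that rose have levels under 10 FPKM.

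Of the 15 recombination core genes, which load the recombinase, remodel its filaments or assist strand exchange, 10 fell, 1 rose and 4 did not pass (median log2 fold change -0.47). RAD51C and XRCC3, paralogs of the recombinase that form a complex and stabilise the filament, had the lowest values. RAD51C had 41.3, 40.3 and 51.0 CPM in normoxia and 21.2, 22.3 and 27.3 CPM in hypoxia. All hypoxia libraries were therefore below all normoxia libraries, and its log2 fold change was -0.90 ± 0.13 (SE, adjusted p = 9.21e-04). XRCC3 had 40.1, 30.2 and 49.4 CPM in normoxia and 19.4, 15.3 and 29.8 CPM in hypoxia, again without overlap but with a wider spread (-0.88 ± 0.26, adjusted p = 0.0197). Of the other paralogs, XRCC2 (-0.75) and RAD51D (-0.64) fell, and RAD51B had a value of -0.07 and did not pass. RAD51D shares 16.4% of its exon bases with the readthrough gene RAD51L3-RFFL.

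RAD54L, which remodels chromatin during strand invasion, had 19.8, 16.5 and 27.8 CPM in normoxia and 9.44, 9.84 and 16.5 CPM in hypoxia (-0.83 ± 0.26, adjusted p = 0.0258), where hypoxia replicate 3 came close to normoxia replicate 2. Its relative RAD54B fell by 0.47 on the log2 scale, though 63.7% of its exon bases lie in FSBP on the same strand, so its count is uncertain. RAD51AP1, which aids strand pairing, fell by 0.54.

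BRCA1, the ubiquitin ligase that steers breaks toward recombination, had a mean of 137 ± 11.2 CPM in normoxia and 97.7 ± 20.1 CPM in hypoxia (SD, n = 3), a log2 fold change of -0.49 ± 0.14 (adjusted p = 0.0206). Its partner BARD1 (-0.41, adjusted p = 0.0494) and BRCA2 (-0.28, adjusted p = 0.0291) also fell, and the BARD1 groups overlapped. PALB2, which bridges BRCA1 and BRCA2, had a value of -0.20 and did not pass (adjusted p = 0.0694), but did with the replicate number as a block (adjusted p = 0.0268). The helicase gene BRIP1 (-0.12) and the meiotic recombinase gene DMC1 (-0.16) did not pass, and DMC1 had under 3 CPM in every library. The values of BRIP1 and RAD51B turned to 0.03 and 0.08 with upper-quartile scaling.

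RAD52, which anneals single strands and serves as a second route to strand exchange, rose. Its libraries had 13.8, 17.8 and 15.6 CPM in normoxia and 24.6, 25.8 and 22.6 CPM in hypoxia. The lowest hypoxia library was above the highest normoxia library, and the level was 54.5% higher (0.63 ± 0.12, adjusted p = 0.00273).

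Several calls of the recombination core were lost when 1 library was left out, with folds of the same sign. BRCA1, BRCA2 and RAD51AP1 no longer passed without normoxia replicate 1, hypoxia replicate 1 or hypoxia replicate 2. Their log2 fold changes were then -0.46 to -0.37 for BRCA1 (adjusted p from 0.0580 to 0.0715), -0.28 to -0.23 for BRCA2 (0.0842 to 0.112) and -0.54 to -0.44 for RAD51AP1 (0.0581 to 0.0803). BARD1 was lost without any of these or normoxia replicate 2, at -0.38 to -0.33 (0.120 to 0.140). RAD54L was lost without normoxia replicate 3, hypoxia replicate 1 or hypoxia replicate 2, at -0.71 to -0.60 (0.0640 to 0.0851), and XRCC3 without hypoxia replicate 1 or 2, at -0.81 to -0.69 (0.0536 to 0.0662). With all 6 libraries and the replicate number as a block, adjusted p was 7.59e-04 for BRCA1, 0.00735 for BRCA2 and 9.64e-04 for RAD51AP1. It was 0.0373 for BARD1, 9.74e-05 for RAD54L and 3.07e-05 for XRCC3. BRIP1 passed without hypoxia replicate 3, at -0.32 (adjusted p = 0.0123).

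Resection nucleases and helicases trim and unwind the ends before strand exchange. Of these 7 genes 5 fell, 0 rose and 2 did not pass (median -0.33). RBBP8, which encodes the CtIP protein that starts resection, had 88.0, 100.1 and 51.2 CPM in normoxia and 53.3, 52.1 and 42.9 CPM in hypoxia, and the groups overlapped because normoxia replicate 3 was low (-0.69 ± 0.23, adjusted p = 0.0294). BLM, a helicase that works in long-range resection and dissolves joined molecules, had 43.5, 39.7 and 44.1 CPM in normoxia and 24.4, 23.2 and 31.7 CPM in hypoxia without overlap (-0.68 ± 0.13, adjusted p = 0.00271). EXO1, the exonuclease of resection and of mismatch repair, had 74.99, 61.5 and 74.7 CPM in normoxia and 43.8, 40.6 and 58.1 CPM in hypoxia, with hypoxia replicate 3 just under normoxia replicate 2 (-0.57 ± 0.15, adjusted p = 0.0119).

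Genes of the MRN complex, which holds and first senses the ends, gave mixed values. Its nuclease gene MRE11A (-0.22, adjusted p = 0.0254) and NBN (-0.33, adjusted p = 0.0118) fell, while RAD50, its remaining subunit, had a value of 0.21 (adjusted p = 0.226) and passed as higher with the replicate block (adjusted p = 0.0258). RAD50 also passed without hypoxia replicate 3, at 0.34 (adjusted p = 0.0115). The WRN helicase gene did not pass, with a value of -0.08 that turned to 0.07 with upper-quartile scaling. MRE11A no longer passed without normoxia replicate 1, normoxia replicate 3, hypoxia replicate 1 or hypoxia replicate 2 (adjusted p from 0.0581 to 0.0843), and RBBP8 without any 1 library other than normoxia replicate 3 (0.0574 to 0.0850).

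Fanconi genes had the lowest median of the 6 groups (-0.67), with 9 of 11 lower, 0 higher and 2 not past the threshold. FANCE, the subunit of the core complex that contacts FANCD2, fell most of all 49 genes. It had 20.9, 19.3 and 28.7 CPM in normoxia and 6.57, 6.48 and 9.30 CPM in hypoxia. The highest hypoxia library was under the lowest normoxia library, and the level was 67.3% lower (-1.61 ± 0.20, adjusted p = 4.46e-04). FANCA, another core subunit, had 89.4, 75.2 and 106 CPM in normoxia and 41.4, 37.1 and 64.6 CPM in hypoxia (-0.92 ± 0.22, adjusted p = 0.00772), although 22.9% of its exon bases lie in ZNF276 on the opposite strand. UBE2T, the ubiquitin-conjugating enzyme of the pathway, had 100.3, 96.7 and 100.2 CPM in normoxia and 49.6, 46.9 and 73.9 CPM in hypoxia (-0.80 ± 0.16, adjusted p = 0.00412), so that hypoxia replicate 3 lay between the other hypoxia libraries and normoxia.

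The rest of the core complex was uneven. FANCG (-0.71) and FANCB (-0.60) fell, FANCF fell slightly (-0.22, adjusted p = 0.0493), and FANCL, the ubiquitin ligase, had a value of -0.19 and passed only with the replicate block (adjusted p = 0.134 without it and 0.0470 with it). FANCC had a value of -0.10 (adjusted p = 0.619), which turned to 0.05 with upper-quartile scaling. FANCM, the translocase that brings the complex to DNA, fell by 0.67 on the log2 scale. The FANCD2 and FANCI pair that the complex ubiquitinates fell by 0.43 and 0.79. Near-identical copies of parts of FANCD2 exist elsewhere in the genome, and 26.1% of FANCL lies in VRK2 on the opposite strand, so both counts are uncertain. FANCD2 no longer passed without any 1 library other than hypoxia replicate 3 (adjusted p from 0.0580 to 0.144), FANCF without any 1 of the 6 libraries (0.0649 to 0.124), and FANCB without normoxia replicate 1 or hypoxia replicate 2 (0.0529 and 0.0557).

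Mismatch repair was the mixed group, with 1 gene higher, 2 lower and 2 not past the threshold (median 0.05). MSH6, which recognises single-base mismatches, had 154, 138 and 169 CPM in normoxia and 78.6, 75.7 and 86.5 CPM in hypoxia. No hypoxia library reached the normoxia range, and the level was 47.8% lower (-0.94 ± 0.10, adjusted p = 2.11e-04). MSH3, which takes the place of MSH6 in the complex for larger loops, had a value of 0.15 and did not pass (adjusted p = 0.195), except without hypoxia replicate 3, at 0.22 (adjusted p = 0.0371).

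Among the MutL genes, whose products cut or license the strand to be removed, MLH3 rose. It had 40.03, 38.4 and 35.7 CPM in normoxia and 59.8, 60.1 and 48.7 CPM in hypoxia, with replicate 3 the lowest in each group and no overlap (0.56 ± 0.10, adjusted p = 0.00262). PMS1 had 35.2, 33.1 and 32.9 CPM in normoxia and 28.7, 24.7 and 28.5 CPM in hypoxia, a small fall without overlap (-0.30 ± 0.09, adjusted p = 0.0211) that no longer passed without normoxia replicate 1 or hypoxia replicate 2 (adjusted p = 0.0749 and 0.0735). PMS2 had a value of 0.05 (adjusted p = 0.547), and its closely similar pseudogene makes the count uncertain.

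Downstream mismatch repair was also measured, in a list of 13 genes for the clamp, the clamp loader, the polymerase, the ligase and meiotic factors, of which 11 were tested. Of these 10 fell and 1 rose (median -0.71). PCNA, the sliding clamp, fell by 1.57 on the log2 scale and RFC2, a subunit of the clamp loader, by 1.15. POLD4, the smallest subunit of polymerase delta, rose by 0.86. These proteins serve replication too, so the list overlaps in function with the replication genes described above.

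Of the 5 damage signalling genes 4 fell and 1 rose (median -0.63). CHEK1, the checkpoint kinase gene that acts on replication stress, had 163, 143 and 165 CPM in normoxia and 75.7, 69.9 and 89.9 CPM in hypoxia, with no overlap (-0.9997 ± 0.11, adjusted p = 2.65e-04). CHEK2, the kinase gene that responds to breaks, had 79.3, 96.4 and 78.8 CPM in normoxia and 43.8, 43.6 and 47.5 CPM in hypoxia (-0.92 ± 0.10, adjusted p = 2.65e-04), and copies of part of this gene elsewhere in the genome make its count uncertain. ATR, the apical kinase upstream of CHEK1, had 96.3, 90.5 and 107 CPM in normoxia and 61.7, 62.9 and 65.2 CPM in hypoxia (-0.63 ± 0.08, adjusted p = 6.03e-04). In all of these genes the hypoxia libraries lay below the normoxia libraries.

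ATM, the apical kinase upstream of CHEK2, went the other way. It had 131, 122 and 118.6 CPM in normoxia and 155, 167 and 157 CPM in hypoxia, a level 28.9% higher with no overlap (0.37 ± 0.07, adjusted p = 0.00366). TP53BP1, which protects ends from resection, fell by 0.34 on the log2 scale (adjusted p = 0.00389).

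End joining genes fell in 4 of 6 cases, with 0 higher and 2 not past the threshold (median -0.60). XRCC6, the smaller Ku subunit, had 552, 497 and 607 CPM in normoxia and 272, 256 and 313 CPM in hypoxia (-0.98 ± 0.11, adjusted p = 2.60e-04). XRCC5, the larger Ku subunit, had 585, 565 and 577 CPM in normoxia and 357, 359 and 363 CPM in hypoxia, with little spread in either group (-0.68 ± 0.07, adjusted p = 1.68e-04). POLQ, the polymerase of the alternative pathway that uses microhomology, had 46.7, 36.5 and 47.04 CPM in normoxia and 25.8, 24.7 and 35.1 CPM in hypoxia, where hypoxia replicate 3 came close to normoxia replicate 2 (-0.60 ± 0.16, adjusted p = 0.0129). PRKDC, the kinase that Ku recruits, fell by 0.59.

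Neither gene of the ligation step passed. LIG4, the ligase, had a value of -0.30 (adjusted p = 0.0719) and its scaffold XRCC4 one of -0.22 (adjusted p = 0.0753), and both passed with the replicate block (adjusted p = 0.00665 and 0.0325). LIG4 passed without hypoxia replicate 2, at -0.43 (adjusted p = 0.0235), and XRCC4 without normoxia replicate 3, at -0.29 (adjusted p = 0.0367). POLQ no longer passed without hypoxia replicate 1, at -0.54 (adjusted p = 0.0505).

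Several of these proteins work in pairs, and 12 ratios of FPKM within a library were compared. In 4 of them the conditions did not overlap. MSH6 over MSH3 lay between 2.83 and 3.73 in normoxia and between 1.38 and 1.84 in hypoxia. ATR over ATM lay between 1.20 and 1.47 in normoxia and between 0.614 and 0.675 in hypoxia. XRCC6 over XRCC5 was lower in hypoxia too, between 1.05 and 1.27 against 1.30 to 1.55 in normoxia. FANCD2 over FANCI was higher in hypoxia, between 0.599 and 0.623 against 0.450 to 0.500 in normoxia. The ATR transcript was therefore the more abundant of its pair per length in every normoxia library and the less abundant in every hypoxia library. The other 8 ratios overlapped, among them BRCA1 over BARD1 (1.96 to 3.28 in normoxia and 2.00 to 2.54 in hypoxia), BRCA2 over PALB2 and CHEK1 over CHEK2. No test was made of the ratios, and how often ratios of other gene pairs separate was not counted. Among single genes such separation was common. Of 15657 tested genes, 5067 were lower and 5469 higher in every hypoxia library than in every normoxia library.

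Other genes of the same routes were lower in hypoxia in most calls. Of 44 further tested genes of recombination and crosslink repair, 23 fell, 1 rose and 20 did not pass (median -0.34). The fall was led by CENPX (-1.48), a DNA-binding partner of FANCM also known as STRA13, and by the helicase gene RECQL4 (-1.30). WDR48, a cofactor of the enzyme that removes ubiquitin from FANCD2, was the gene that rose (0.52). Of 33 further genes of end joining and break signalling, 18 fell, 4 rose and 11 did not pass (median -0.38). CDC25A, a phosphatase that CHEK1 holds back, and CLSPN, an adaptor for CHEK1 activation, fell by 1.73 and 1.32 on the log2 scale. ABRAXAS1 (older symbol FAM175A), the scaffold of a BRCA1 complex, and the end joining polymerase gene POLL rose by 0.75 and 0.30.

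**Figure D4:**
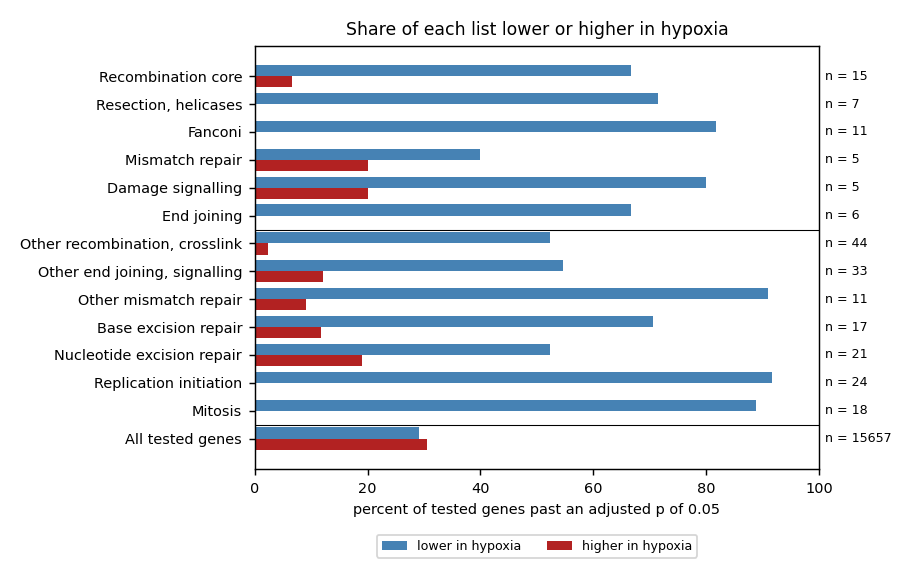
Share of the tested genes of each list (x axis, percent) that fell (blue) or rose (red) in hypoxia at an adjusted p under 0.05, with the number tested at the right. Every list of repair, replication and mitosis genes has a larger blue bar than the 29.1% of all tested genes, and 2 of 5 mismatch repair genes make the shortest of them.

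The balance of calls depended on the scaling. With upper-quartile factors the median of all tested genes moved up by 0.16 on the log2 scale, and 64.5% rather than 51.1% of all calls were higher. With library totals alone it moved up by 0.12, and 61.0% were higher. Among the 49 genes 23 fell and 4 rose with the first, against 21.0% of all tested genes lower and 38.1% higher. With the second 26 fell and 3 rose, against 23.0% lower and 35.9% higher. RAD52, MLH3 and ATM rose under each of the 3 other scalings tried, and 23 of the 34 genes that fell did so under each. RAD51C, BLM, FANCE, FANCI, FANCM, UBE2T, MSH6, ATR, CHEK1, CHEK2, PRKDC, XRCC5 and XRCC6 fell and MLH3 rose in all 17 alternatives tried.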

How the data were processed

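T47D cells were sequenced in normoxia (3 libraries) and hypoxia (3 libraries), grouped by the labels. The authors made stranded mRNA libraries, removed adapters, aligned reads to GRCh37 (hg19) and deposited whole-number counts per RefSeq gene, without normalization. The submitters' processing notes name FastQC 0.11.5, STAR 2.5.2a and featureCounts 1.5.1. How strand and reads with several matches were handled in counting is not given in the sources used here, so counts of overlapping and near-identical genes are uncertain.

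The tests used edgeR 4.0.16 and, as an alternative, DESeq2 1.42.0, both in R 4.3.3 with limma 3.58.1. Figures came from matplotlib 3.10.9 under Python 3.11.15. After filterByExpr (minimum count 10, minimum total 15), 15657 genes were tested two-sided by edgeR's quasi-likelihood method in a model of condition alone over the 6 libraries, scaled by TMM, and p-values were adjusted by Benjamini and Hochberg's method over all of them at 0.05. CPM used TMM-scaled library sizes, and FPKM divided CPM by the union exon length in the files. Alternatives were edgeR's exact test, which the study used, DESeq2, 3 other scalings, the filter, the replicate block, the libraries left out in turn and a threshold of 0.01. The test was checked on simulated counts.

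The methods call the samples paired. Same-numbered libraries deviated together from their condition means (correlations across tested genes of 0.338, 0.422 and 0.575). Replicates 1 and 2 also did so across numbers (0.277 and 0.243), while replicate 3 against the others gave -0.466 to -0.376. The blocked value is printed where it changes a call and for calls lost with 1 library left out. Those outside the recombination core had blocked adjusted p of 0.00575 (MRE11A), 0.00133 (RBBP8), 0.00452 (FANCD2), 0.0246 (FANCF), 9.51e-04 (FANCB), 0.00483 (PMS1) and 4.10e-04 (POLQ).

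The 49 genes, their 6 groups and the other lists were chosen with earlier results of these data known. Values per library are given for up to 3 genes per group with the largest change past the threshold and for every gene that rose. Of each other list, up to 2 genes each way with a mean of at least 100 counts are named. BRCA1's means were added after its values were seen.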

Additional observations from a re-analysis of the deposited data

How the results depend on the processing

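Over the 16 alternatives that refit or rescale the data, the medians of the 49 genes and of each of the 6 groups kept their sign, and 14 of the 37 calls were made in these and at an adjusted p under 0.01. At that threshold 18 genes fell, against 20.2% of all tested genes. Leaving out libraries gave 13 to 36 genes lower and 1 to 5 higher, with the fewest of both without replicate 1 of both conditions and the most without replicate 3, and a median from -0.646 to -0.414. Without replicate 1 of both conditions, 13.9% of all tested genes fell and 16.9% rose. Without replicate 3 of both, 34.8% fell and 36.4% rose. The replicate block raised the genes lower from 34 to 38 and those higher from 3 to 4, by PALB2, FANCL, XRCC4, LIG4 and RAD50, and changed no other call, while 35.2% of all tested genes fell and 36.6% rose. With upper-quartile factors the median of the 49 genes was -0.33, and with these and with library totals alone the group medians were -0.17 and -0.22 for resection and helicases, 0.21 and 0.17 for mismatch repair, -0.47 and -0.51 for damage signalling, and -0.44 and -0.48 for end joining. With libraries left out, damage signalling ran from -0.70 to -0.57 and end joining from -0.69 to -0.49. Signs turned in genes that had not passed: with the same pair of scalings RAD51B was at 0.084 and 0.043, WRN at 0.074 and 0.033, and FANCC at 0.053 and 0.011, and with the first BRIP1 was at 0.031. With libraries left out BRIP1 ran from -0.36 to 0.0032 and FANCC from -0.28 to 0.027. The cause of these shifts was not tested. Depth limits DMC1 most, with under 3 CPM in each library.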

Other observations

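Excision repair, which mends damaged bases and bulky lesions without breaking both strands, was measured in the same fit. Of 17 base excision repair genes 12 fell, 2 rose and 3 did not pass (median log2 fold change -0.40). FEN1, the flap nuclease, had 275, 237 and 319 CPM in normoxia and 98.8, 86.9 and 149 CPM in hypoxia (-1.31 ± 0.20). UNG, which removes uracil from DNA, had 150, 134 and 164 CPM in normoxia and 58.1, 58.7 and 68.2 CPM in hypoxia (-1.27 ± 0.11). PARP3, an ADP-ribosyltransferase, rose from 11.4, 14.0 and 8.95 CPM to 23.0, 22.8 and 21.0 CPM (0.96 ± 0.16), and the glycosylase gene NEIL1 rose by 0.39.

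Of 21 nucleotide excision repair genes 11 fell, 4 rose and 6 did not pass (median -0.35). ERCC2, a helicase subunit of the transcription factor TFIIH, had 39.9, 43.3 and 50.4 CPM in normoxia and 17.7, 19.4 and 28.0 CPM in hypoxia (-1.03 ± 0.18). CCNH and CDK7, a cyclin and its kinase in the same complex, went in opposite directions: CCNH fell by 0.85 on the log2 scale, whereas CDK7 rose by 0.28. DDB2, which recognises ultraviolet lesions in chromatin, rose by 0.44.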
